A study of Cavia porcellus with 35 samples.

Results

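The animals described here were the 11 F1 male guinea pigs of the series, 5 control and 6 sGC, out of 35 animals in all, taken as the samples of the 1 table whose count columns carry the name Matthews. The pregnant dams had received 3 courses of the synthetic glucocorticoid (sGC) betamethasone at 1 mg/kg, or saline for controls, in late gestation, so that the F1 males were exposed before birth. Messenger RNA was sequenced from punches of the medial prefrontal cortex (mPFC) collected at postnatal day 40, with 1 library per animal. The labels name the sGC group F1_Male_Beta and the control group F1_Male_Control. A punch holds neurons, glia and vessels together, the animals were taken by the amount and quality of their RNA, and whether each male came from a litter of its own is not given in the sources used here. The p-values therefore measure the spread between these animals.

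The libraries held 25697953 to 31763585 reads assigned to genes, and levels are given as CPM, the reads of a gene scaled to a common library size, after TMM normalisation, which equalises the bulk of the genes between libraries. Cortical markers were present in every library. SLC17A7, the vesicular glutamate transporter of cortical excitatory neurons, was at 1472 ± 115.8 CPM in the controls against 1409 ± 54.8 CPM in the sGC group (SD, n = 5 and 6), and RBFOX3, which encodes the neuronal nuclear protein NeuN, at 373 ± 47.97 CPM in the controls against 400.1 ± 41.2 CPM in the sGC group. One protocol in the labels speaks of the paraventricular nucleus, whereas the sample source is the prefrontal cortex. The hypothalamic peptides were near the floor of the table, with AVP (vasopressin) at 0.988 ± 0.208 CPM in the controls against 1.17 ± 0.181 CPM in the sGC group and OXT (oxytocin) at 3.63 ± 0.378 CPM in the controls against 3.503 ± 0.374 CPM in the sGC group. The dopamine receptor DRD2, abundant in the striatum that adjoins the punched area, was at 0.363 ± 0.133 CPM in the controls against 0.361 ± 0.186 CPM in the sGC group. The summed level of the 14 striatal markers was 512 to 581 CPM in controls and 561 to 683 CPM in sGC animals. This sum includes GNG7, described below, which was higher in sGC animals. The mean log2 deviation of the list from the gene means overlapped, from -0.10 to 0.03 in controls and from -0.06 to 0.08 in sGC animals. The myelin marker MBP and the choroid plexus marker TTR were not analysed here. On the first principal component, which held 38.3% of the variance between libraries, control 3 (-25.3) and control 4 (-18.3) stood apart from the other controls (-3.91 to -0.32), and sGC animal 6 (-2.17) lay among those controls rather than with the other sGC animals (1.63 to 17.4). For many lists, counts below are therefore also given without controls 3 and 4. For some they are also given without these and sGC animal 6. Both choices were made after the data were seen. A list given without these counts is not thereby unaffected by these animals.

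Glucocorticoids act through NR3C1, the glucocorticoid receptor, a transcription factor that is widespread in the brain, and late gestation is the time when they mature many tissues. In the guinea pig, a species born with an advanced brain, much of cortical myelination begins before birth and continues in juvenile life. Oligodendrocytes make myelin from large amounts of cholesterol, very long chain lipids and a small set of proteins such as MAG and CNP, under the transcription factors SOX10, OLIG1, OLIG2 and MYRF. In the mPFC, myelinated axons run among excitatory neurons of the cortical layers, GABA-releasing interneurons and astrocytes, and their transcripts are read together in a punch.

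Of 11524 tested genes, 9.22% differed between sGC and control males with a false discovery rate (FDR) below 0.05 by the quasi-likelihood F test of edgeR, with 5.74% higher and 3.48% lower in sGC animals. Genes that were higher had a median log2 fold change of 0.37 and those that were lower a median of -0.24, while the median over all tested genes was -7.26e-05, so that the scaling centred the comparison. Changes were small, since 22 of the genes that differed changed by more than 1 on the log2 scale. The genes were read in 46 lists of cell types and functions, and the members of the lists are described against these shares. A list's share in all counts members higher or lower together, and stands against the 9.22% of all tested genes. A change is said to be lost without an animal where its FDR was no longer below 0.05 once that animal alone was left out, and animals joined by "or" were left out in turn. With controls 3 and 4 left out together, 214 genes were higher and 50 lower, and with sGC animal 6 left out as well, 490 were higher and 305 lower.

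**Figure D1:**
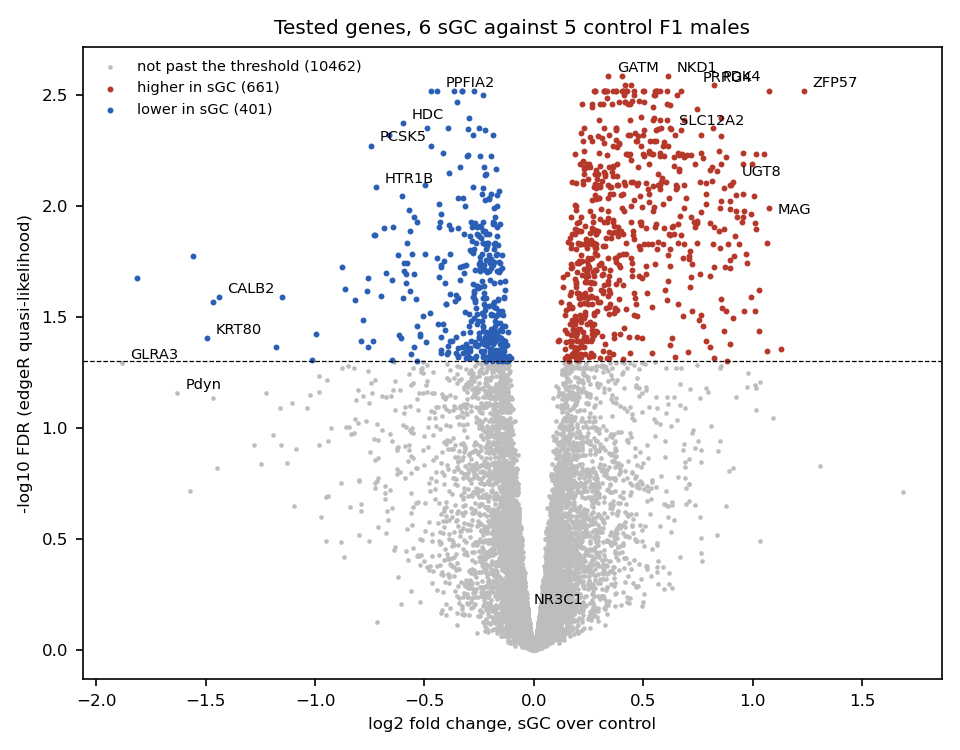
Each point is 1 of the 11524 tested genes, with the log2 fold change of 6 sGC over 5 control males on the x axis and -log10 of the quasi-likelihood FDR on the y axis (dashed line, FDR 0.05). Red points were higher and blue points lower in sGC animals. ZFP57 lies farthest to the right of the red points, and several of the blue points farthest to the left, such as CALB2 and KRT80, lie close to the line.

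Myelin and mature oligodendrocyte genes formed the list with the highest share of changed members. Of 28 tested members, 25, or 89.3%, were higher in sGC animals and 0 lower, against 5.74% higher among all tested genes, and the median log2 fold change of the list was 0.88, against -7.26e-05 for all genes. In 15 of them every sGC animal lay above every control, an arrangement found in 4.22% of all tested genes, while 6.26% had no overlap in either direction. UGT8, which makes the galactolipids of myelin, stood at 222, 216, 119, 132 and 221 CPM in controls 1 to 5, and from 263 to 430.3 CPM, with a median of 347 CPM, in the sGC animals. UGT8 was higher in every sGC animal than in any control (log2 fold change 0.91 ± 0.17 SE, quasi-likelihood FDR 0.00777). MAG, the adhesion protein of the myelin face next to the axon, stood at 355, 334, 208, 199 and 444 CPM in controls 1 to 5, and from 449 to 898 CPM, with a median of 674 CPM, in the sGC animals. MAG was higher in every sGC animal than in any control (log2 fold change 1.08 ± 0.22 SE, quasi-likelihood FDR 0.0101). Controls 3 and 4 were the lowest animals for both genes, and controls 1, 2 and 5 still lay below all sGC animals. In bulk tissue, more cells of a type and more RNA per cell cannot be told apart.

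ASPA, the enzyme that splits N-acetylaspartate in oligodendrocytes, stood at 4.99, 2.71, 3.21, 3.19 and 4.95 CPM in controls 1 to 5, and from 5.31 to 11.3 CPM, with a median of 7.02 CPM, in the sGC animals. ASPA was higher in every sGC animal than in any control (log2 fold change 1.06 ± 0.24 SE, quasi-likelihood FDR 0.0147). The protease gene ADAMTS4, active in oligodendrocytes, was at 44.1 ± 10.3 CPM in the controls against 85.4 ± 18.7 CPM in the sGC group and again separated the groups (0.95, FDR 0.00576). PLLP, a membrane protein of myelin (0.55, FDR 0.00356), and MAL, a raft protein of myelin (0.43, FDR 0.00478), also rose. Further members, named after their values were seen, were CLDN11, the tight junction protein of myelin (log2 fold change 1.01, FDR 0.00902), MOG, on the outermost myelin surface (0.99, FDR 0.0109), CNP, a myelin phosphodiesterase (0.90, FDR 0.00806), OPALIN (0.95, FDR 0.0118) and BCAS1 (0.90, FDR 0.0103). FA2H, which hydroxylates myelin lipids, rose by 0.94, FDR 0.0149. These genes passed in each of the 11 fits that left out 1 animal.

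The members that did not pass were HAPLN2 (log2 fold change 0.86 ± 0.26 SE, quasi-likelihood FDR 0.0526), a link protein at nodes of Ranvier, GAMT (log2 fold change 0.19 ± 0.07 SE, quasi-likelihood FDR 0.121) of creatine synthesis, and TSPAN2 (log2 fold change -0.14 ± 0.14 SE, quasi-likelihood FDR 0.593). HAPLN2 had an FDR of 0.0349 to 0.0466 without sGC animal 2 or 6 or control 5, and GAMT 0.0418 without sGC animal 6. Over all 28 members, the mean log2 deviation of an animal from the gene means was -0.19, -0.30, -0.74, -0.71 and -0.08 in controls 1 to 5, and 0.69, 0.01, 0.38, 0.33, 0.46 and 0.15 in sGC animals 1 to 6. Every sGC animal lay above every control, although sGC animal 2 lay closer to control 5 than to any other sGC animal. Of the 28 members, 13 were higher with controls 3 and 4 left out together and 24 with sGC animal 6 left out as well, and the median log2 fold change without controls 3 and 4 was 0.62. The number that rose was 24 to 27 when 1 animal was left out.

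Of 15 tested genes of the precursors of these cells, 2, or 13.3%, were higher and 0 lower, against 5.74% higher and 3.48% lower among all tested genes, 4 were higher with DESeq2 and 4 with the likelihood ratio test, and the median log2 fold change was 0.13. The count of precursor genes that rose was 1 without controls 2 or 4 or sGC animals 1 or 4 and 4 without sGC animal 2. VCAN, a proteoglycan of precursor cells and the matrix at nodes, stood at 37.7, 35.2, 32.6, 36.5 and 38.9 CPM in controls 1 to 5, and from 43.1 to 58.4 CPM, with a median of 50.2 CPM, in the sGC animals. VCAN was higher in every sGC animal than in any control (log2 fold change 0.48 ± 0.08 SE, quasi-likelihood FDR 0.00481). PDGFRA, the growth factor receptor that defines precursors, was at 49.99, 52.8, 58.5, 60.6 and 49.1 CPM in controls 1 to 5 and from 45.3 to 67.4 CPM, with a median of 50.7 CPM in sGC animals (log2 fold change -0.05 ± 0.09 SE, quasi-likelihood FDR 0.8), with overlapping groups. GPR17, a receptor of cells on the way to maturity, had a log2 fold change of 0.31, FDR 0.0237, which was lost without controls 2 or 4 or sGC animals 1 or 4 (FDR 0.0507 to 0.0633).

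Transcription factors of the oligodendrocyte lineage also rose. In the list of Notch and glial transcription factors, 11 of 33 were higher and 1 lower, 36.4% in all, with a median of 0.21. Of those higher, 5 belonged to the myelin list as well. OLIG1, which drives the maturation of oligodendrocytes, stood at 256, 255, 200.4, 206 and 278 CPM in controls 1 to 5, and from 319 to 399.5 CPM, with a median of 376 CPM, in the sGC animals. OLIG1 was higher in every sGC animal than in any control (log2 fold change 0.61 ± 0.09 SE, quasi-likelihood FDR 0.00346). SOX10, the factor that maintains their identity, stood at 73.9, 75.6, 58.3, 54.7 and 89.6 CPM in controls 1 to 5, and from 88.7 to 162 CPM, with a median of 112 CPM, in the sGC animals. Sample ranges met, with the lowest sGC animal just under the highest control (log2 fold change 0.77 ± 0.16 SE, quasi-likelihood FDR 0.0106). MYRF, which switches on the myelin genes, stood at 93.4, 90.6, 60.5, 59.5 and 114 CPM in controls 1 to 5, and from 114 to 232 CPM, with a median of 158 CPM, in the sGC animals. The lowest sGC animal stood at the level of the highest control (log2 fold change 0.96 ± 0.20 SE, quasi-likelihood FDR 0.0105). OLIG2 (0.54, FDR 0.0058), SOX8 (0.44, FDR 0.00617) and SALL1 (0.50, FDR 0.00585), the last a factor of microglia and precursor cells, also rose. NOTCH1, the receptor, and RBPJ, its DNA-binding partner, named after their values were seen, had log2 fold changes of 0.32, FDR 0.0189 and 0.29, FDR 0.0154. The member that fell was the Notch ligand DLL3 (-0.21, FDR 0.0393, named after its values were seen), which was lost without controls 1, 2, 3, 4 or 5 or sGC animals 1, 2, 3 or 4 (FDR 0.0541 to 0.0903). Without controls 3 and 4, 5 members of the list were higher, and 8 when sGC animal 6 was left out as well.

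Genes of lipid synthesis rose in part. Of 26 genes of fatty acid and sphingolipid synthesis, 10 were higher and 1 lower, 42.3% in all, with a median of 0.14. ELOVL1, which elongates saturated fatty acids to the very long chains of myelin, stood at 24.4, 24.8, 15.3, 18.8 and 27.7 CPM in controls 1 to 5, and from 32.2 to 61.4 CPM, with a median of 42.3 CPM, in the sGC animals. ELOVL1 was higher in every sGC animal than in any control (log2 fold change 0.96 ± 0.17 SE, quasi-likelihood FDR 0.00648). CERS2, the ceramide synthase that uses these chains, stood at 137, 123, 96.97, 102 and 142 CPM in controls 1 to 5, and from 162 to 233 CPM, with a median of 194 CPM, in the sGC animals. CERS2 was higher in every sGC animal than in any control (log2 fold change 0.67 ± 0.11 SE, quasi-likelihood FDR 0.00453). ELOVL5, an elongase of polyunsaturated fatty acids (0.32, FDR 0.00303), ELOVL7 (0.46, FDR 0.013) and SREBF1, the transcription factor of lipogenic genes (0.32, FDR 0.0118), rose too. The member that fell was CERS6 (-0.20, FDR 0.0477, named after its values were seen), which passed in 2 of the 11 fits that left out 1 animal, those without control 5 and without sGC animal 6. The number that rose was 10 to 12 when 1 animal was left out, and 6 were higher with controls 3 and 4 left out together and 8 with sGC animal 6 left out as well. The lists share UGT8, FA2H and ASPA with the myelin list.

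Of 28 genes of cholesterol synthesis and uptake, 5 were higher and 0 lower, 17.9% in all, with a median of 0.07. The count of cholesterol genes that rose was 3 without control 4. The count of cholesterol genes that fell was 1 without sGC animal 6. NSDHL, an enzyme late in the pathway, stood at 114, 106, 102, 107 and 103 CPM in controls 1 to 5, and from 124 to 134 CPM, with a median of 129.8 CPM, in the sGC animals. NSDHL was higher in every sGC animal than in any control (log2 fold change 0.28 ± 0.04 SE, quasi-likelihood FDR 0.00303). NPC1, which exports cholesterol from lysosomes, stood at 71.3, 83.5, 81.7, 80.2 and 91.1 CPM in controls 1 to 5, and from 100.8 to 115 CPM, with a median of 112 CPM, in the sGC animals. NPC1 was higher in every sGC animal than in any control (log2 fold change 0.42 ± 0.06 SE, quasi-likelihood FDR 0.00303). The log2 fold change of CYP51A1, a sterol demethylase, was 0.24, FDR 0.0273 and was lost without controls 3, 4 or 5 or sGC animals 1, 2, 4 or 5 (FDR 0.0513 to 0.064). NPC2, the partner of NPC1, had 0.27, FDR 0.0199, lost without control 4 (FDR 0.0533). Most genes of the pathway between these points did not pass, and 2 were higher with controls 3 and 4 left out together and 4 with sGC animal 6 left out as well.

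Adhesion genes changed in both directions. Of 28 synaptic and neuronal adhesion genes, 3 were higher and 11 lower, against 5.74% and 3.48% of all genes, and the median was -0.17. NFASC, which encodes the neurofascins of the node and of the glial loops beside it, stood at 1056, 1149, 938, 885 and 1172 CPM in controls 1 to 5, and from 1276 to 1496 CPM, with a median of 1389 CPM, in the sGC animals. NFASC was higher in every sGC animal than in any control (log2 fold change 0.43 ± 0.08 SE, quasi-likelihood FDR 0.0058). CNTN2, which holds potassium channels beside the node, stood at 255, 271, 179.7, 185 and 321 CPM in controls 1 to 5, and from 312 to 512 CPM, with a median of 417 CPM, in the sGC animals. The lowest sGC animal lay just under the highest control (log2 fold change 0.74 ± 0.16 SE, quasi-likelihood FDR 0.0125). The third to rise, CADM4, an adhesion molecule of myelinating glia, had a log2 fold change of 0.19, FDR 0.0212 and was lost without control 4 (FDR 0.0576).

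Among the neuronal adhesion genes that fell, OPCML, a cell surface protein of neurons, stood at 549.7, 536, 565, 517 and 524 CPM in controls 1 to 5 and from 399.6 to 527 CPM, with a median of 428 CPM, in the sGC animals. One sGC animal lay within the range of the controls (log2 fold change -0.28 ± 0.06 SE, quasi-likelihood FDR 0.0143). CNTN6, a contactin of cortical neurons, stood at 5.46, 6.47, 5.55, 8.697 and 6.34 CPM in controls 1 to 5, and from 3.19 to 5.11 CPM, with a median of 4.35 CPM, in the sGC animals. CNTN6 was lower in every sGC animal than in any control (log2 fold change -0.62 ± 0.14 SE, quasi-likelihood FDR 0.0165). CNTN4, a relative of CNTN6, was at 52.1 ± 3.63 CPM in the controls against 43.99 ± 2.69 CPM in the sGC group (-0.24, FDR 0.017), and L1CAM, which guides growing axons, at 403 ± 22.9 CPM in the controls against 348 ± 17.5 CPM in the sGC group (-0.21, FDR 0.0147). NRXN3, a presynaptic neurexin named after its values were seen, had -0.44, FDR 0.0171. The largest falls of the list that passed, CNTN5 (-1.46, FDR 0.027) and C1QL3 (-0.76, FDR 0.021), both named after their values were seen, were lost without control 4 or sGC animals 1, 3, 4 or 5 (FDR 0.052 to 0.0611) and without controls 3 or 4 or sGC animals 1 or 4 (FDR 0.0507 to 0.0581). Without control 3 alone CNTN5 was at -0.94, and without controls 3 and 4 together CNTN5 was at -0.65, FDR 0.155 and C1QL3 at -0.50, FDR 0.165. The count of adhesion genes that fell was 6 without control 4 or sGC animals 1 or 4 and 7 without sGC animal 3. Of these genes, 0 fell with controls 3 and 4 left out together and 7 with sGC animal 6 left out as well.

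**Figure D2:**
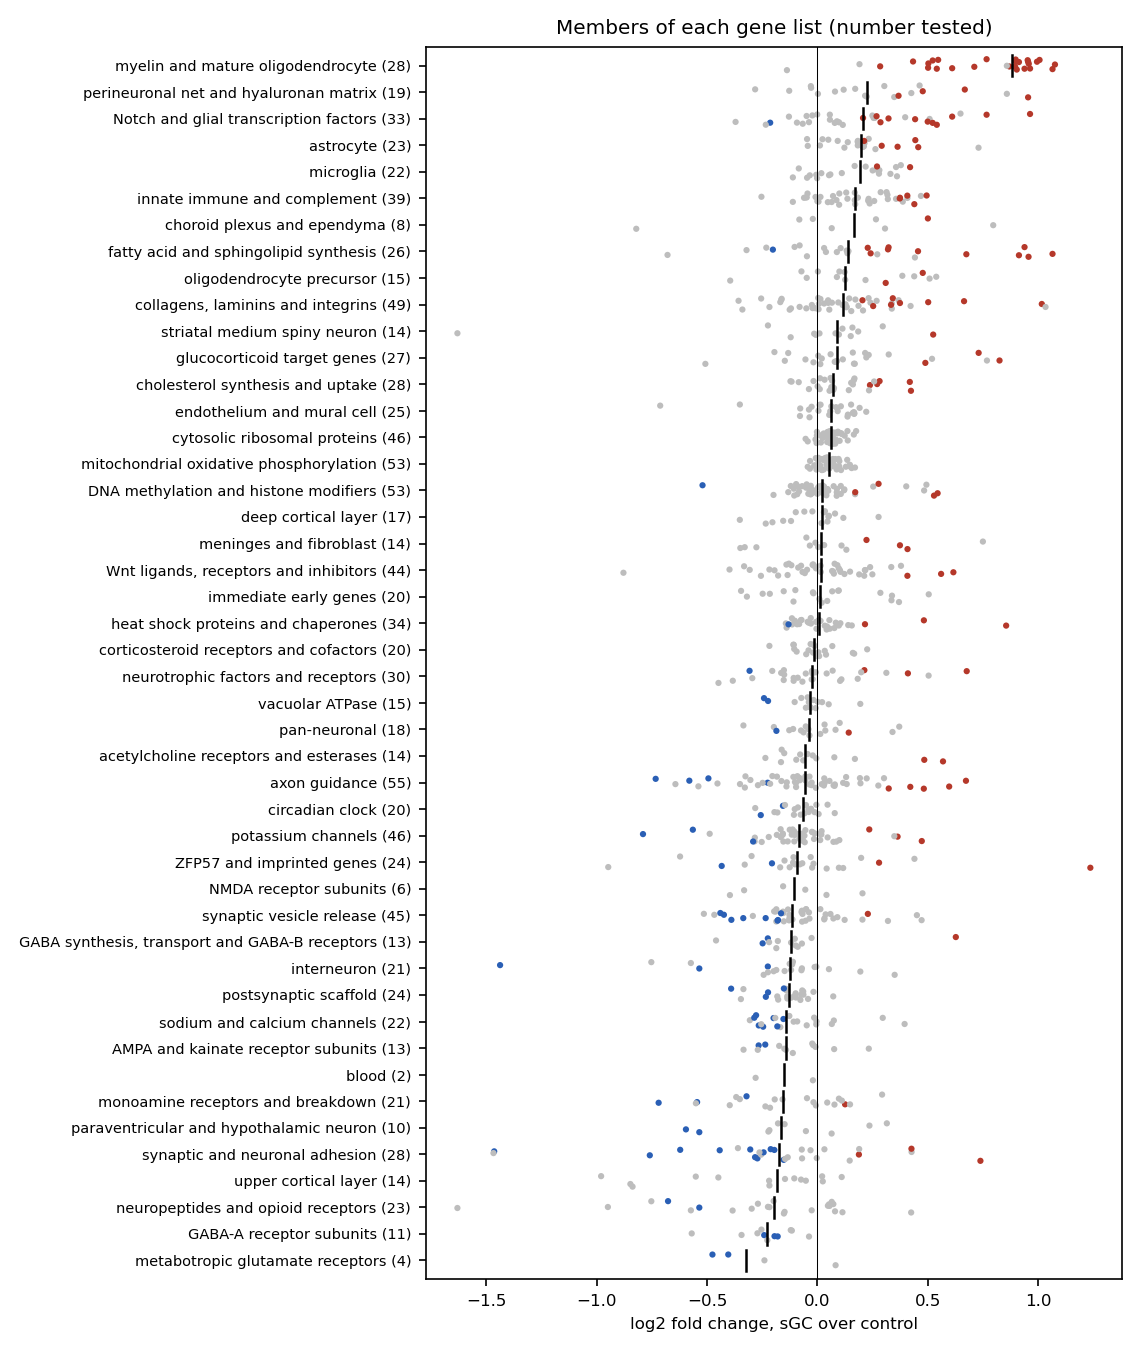
Each point is 1 tested member of a gene list, on the x axis the log2 fold change of 6 sGC over 5 control males, with red points higher and blue points lower at a quasi-likelihood FDR under 0.05, grey points not past it, and a black bar at the list's median. Lists are ordered by median, from 0.88 for myelin and mature oligodendrocyte genes to -0.32 for metabotropic glutamate receptors, and the ribosomal and oxidative phosphorylation lists hold grey points alone.

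Astrocyte genes rose in part. Of 23 tested members, 5, or 21.7%, were higher and 0 lower, against 5.74% higher among all tested genes, with a median of 0.20, and 10 were higher with DESeq2 and 10 with the likelihood ratio test. The count of astrocyte genes that rose was 3 without controls 2 or 3. HEPACAM, a cell adhesion protein of astrocytes, stood at 86.6, 75.7, 78.2, 77.2 and 87.5 CPM in controls 1 to 5, and from 99.4 to 117 CPM, with a median of 112 CPM, in the sGC animals. HEPACAM was higher in every sGC animal than in any control (log2 fold change 0.44 ± 0.05 SE, quasi-likelihood FDR 0.00285). KCNJ10, the potassium channel Kir4.1 that clears potassium in astrocytes and oligodendrocytes, stood at 175, 179, 137, 169 and 166 CPM in controls 1 to 5, and from 199 to 234 CPM, with a median of 209 CPM, in the sGC animals. KCNJ10 was higher in every sGC animal than in any control (log2 fold change 0.36 ± 0.07 SE, quasi-likelihood FDR 0.00663). GPR37L1, an orphan receptor of astrocytes, was at 178 ± 15.4 CPM in the controls against 244 ± 20.8 CPM in the sGC group and separated the groups as well (0.46, FDR 0.00318). SPARCL1 (0.21, FDR 0.0407) was lost without controls 2, 3, 4 or 5 or sGC animals 1, 3 or 4 (FDR 0.06 to 0.0993), and S100B (0.29, FDR 0.0367) without controls 1, 2, 3 or 4 or sGC animals 1 or 3 (FDR 0.0647 to 0.0876).

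The 2 defining genes of the cell type did not pass. GFAP, the filament protein of reactive astrocytes, stood at 303, 256, 243, 128 and 288 CPM in controls 1 to 5 and from 222 to 559 CPM, with a median of 442 CPM, in the sGC animals. The groups overlapped and control 4 was the lowest animal (log2 fold change 0.73 ± 0.26 SE, quasi-likelihood FDR 0.102), and GFAP passed in the likelihood ratio test alone, at an FDR of 0.0474. AQP4, the water channel of astrocyte endfeet, had a log2 fold change of 0.26, FDR 0.244. Summed over the list, levels were 16092 to 17334 CPM in controls and 17188 to 22454 CPM in sGC animals, and the mean log2 deviation of the list was highest in sGC animal 6, at 0.33. Of the members, 4 were higher with controls 3 and 4 left out together and 6 with sGC animal 6 left out as well.

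Of 22 microglial markers, 2, or 9.09%, were higher and 0 lower (median 0.19), against 5.74% higher among all tested genes, and 4 were higher with DESeq2 and 4 with the likelihood ratio test. The summed levels of the markers were 456 to 503 CPM in controls and 483 to 616 CPM in sGC animals. ITGB2, the integrin chain of leukocytes and microglia, stood at 9.87, 9.07, 8.902, 10.2 and 9.87 CPM in controls 1 to 5, and from 11.5 to 14.3 CPM, with a median of 12.8 CPM, in the sGC animals. ITGB2 was higher in every sGC animal than in any control (log2 fold change 0.42 ± 0.07 SE, quasi-likelihood FDR 0.00585). LAPTM5, a lysosomal protein of the same cells, was at 18.6 ± 0.963 CPM in the controls against 22.4 ± 1.45 CPM in the sGC group (0.27, FDR 0.0128). CSF1R, which defines microglia, was at 93.9 ± 12.5 CPM in the controls against 91.7 ± 8.05 CPM in the sGC group and did not pass (-0.03, FDR 0.842). Of 39 innate immune and complement genes, 5, or 12.8%, were higher and 0 lower (median 0.17). The count of immune genes that rose was 2 without controls 1 or 2 or sGC animal 5 and 3 without controls 3 or 4 or sGC animal 2. CFI, the protease that cuts active complement C3b, stood at 53.8, 56.6, 54.2, 62.4 and 64.7 CPM in controls 1 to 5, and from 68.4 to 81.9 CPM, with a median of 75.96 CPM, in the sGC animals. CFI was higher in every sGC animal than in any control (log2 fold change 0.37 ± 0.06 SE, quasi-likelihood FDR 0.00445). TGFBR1, a receptor for TGF-beta, had 0.37, FDR 0.0131. NOD2, CFD and Tgfb1 were the others, and were lost without controls 1, 2, 3 or 4 or sGC animals 1, 3 or 5 (FDR 0.0667 to 0.108), without controls 1, 2, 3 or 4 or sGC animals 1, 2, 4 or 5 (FDR 0.0619 to 0.102) and without controls 1, 2, 3, 4 or 5 or sGC animals 1, 2, 3 or 5 (FDR 0.0505 to 0.084). Without controls 3 and 4, 1 of the microglial and 1 of the immune genes were higher.

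No endothelial or mural gene passed in the quasi-likelihood test, among 25 tested (median 0.06), with 2 with an unadjusted p under 0.05, 0 passing in DESeq2 and 0 in edgeR's likelihood ratio test. CLDN5, the tight junction protein of the blood-brain barrier, was at 74.6 ± 6.47 CPM in the controls against 83.8 ± 15.3 CPM in the sGC group (0.17, FDR 0.361). Several genes of matrix and basement membrane rose. Of 49 collagens, laminins and integrins, 8 were higher and 0 lower, 16.3% in all, with a median of 0.11. LAMB3, a laminin chain that is not in the list, fell (-0.58, FDR 0.0147). The count of matrix genes that rose was 5 without control 4. The count of matrix genes that fell was 1 without controls 1 or 3 or sGC animal 3. ITGB8, an integrin of glia that activates TGF-beta, stood at 73.97, 72.4, 73.1, 71.96 and 70.6 CPM in controls 1 to 5, and from 85.2 to 98.5 CPM, with a median of 91.6 CPM, in the sGC animals. ITGB8 was higher in every sGC animal than in any control (log2 fold change 0.33 ± 0.04 SE, quasi-likelihood FDR 0.00303). COL18A1, a basement membrane collagen, stood at 40.2, 41.6, 40.9, 42.6 and 58.6 CPM in controls 1 to 5, and from 56.5 to 89.2 CPM, with a median of 69.4 CPM, in the sGC animals. Control 5 lay above the lowest sGC animal, and the other controls lay together below all of them (log2 fold change 0.66 ± 0.12 SE, quasi-likelihood FDR 0.00684). COL5A3, a fibrillar collagen, had 1.02, FDR 0.0126, LAMA2, a laminin chain, 0.50, FDR 0.00593, and ITGB1, the common integrin chain, 0.25, FDR 0.00648.

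Of 19 genes of perineuronal nets and hyaluronan matrix, 4 were higher and 0 lower, 21.1% in all (median 0.22). These were VCAN, ADAMTS4, HYAL1 and CHST3. VCAN belongs to the precursor list and ADAMTS4 to the myelin list as well. Without controls 3 and 4, 2 of the 19 were higher. HYAL1, a hyaluronidase, was at 4.100 ± 0.863 CPM in the controls against 6.51 ± 0.8101 CPM in the sGC group (0.67, FDR 0.011), and CHST3, a sulphotransferase of chondroitin (0.37, FDR 0.0304), was lost without controls 1, 2 or 3 or sGC animal 1 (FDR 0.0562 to 0.0726). Among 14 markers of meninges and fibroblasts, 3 were higher and 0 lower, 21.4% in all (median 0.02). PTGDS, a prostaglandin synthase of meninges and oligodendrocytes, was at 766 ± 93.9 CPM in the controls against 1017 ± 129 CPM in the sGC group (0.41, FDR 0.0164). PDGFRL was at 75.8 ± 3.97 CPM in the controls against 88.4 ± 6.25 CPM in the sGC group (0.22, FDR 0.0204). The third, BGN, was lost without controls 2 or 4 or sGC animal 4 (FDR 0.0519 to 0.0584). Of the meningeal markers, 0 were higher with controls 3 and 4 left out together and 2 with sGC animal 6 left out as well. The summed level of the meningeal markers was 961 to 1179 CPM in controls and 1160.1 to 1543 CPM in sGC animals. PTGDS made up most of this sum. The mean log2 deviation of the list overlapped, from -0.23 to 0.30 in controls and from -0.24 to 0.40 in sGC animals. The part of meninges in these changes was not tested.

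**Figure D3:**
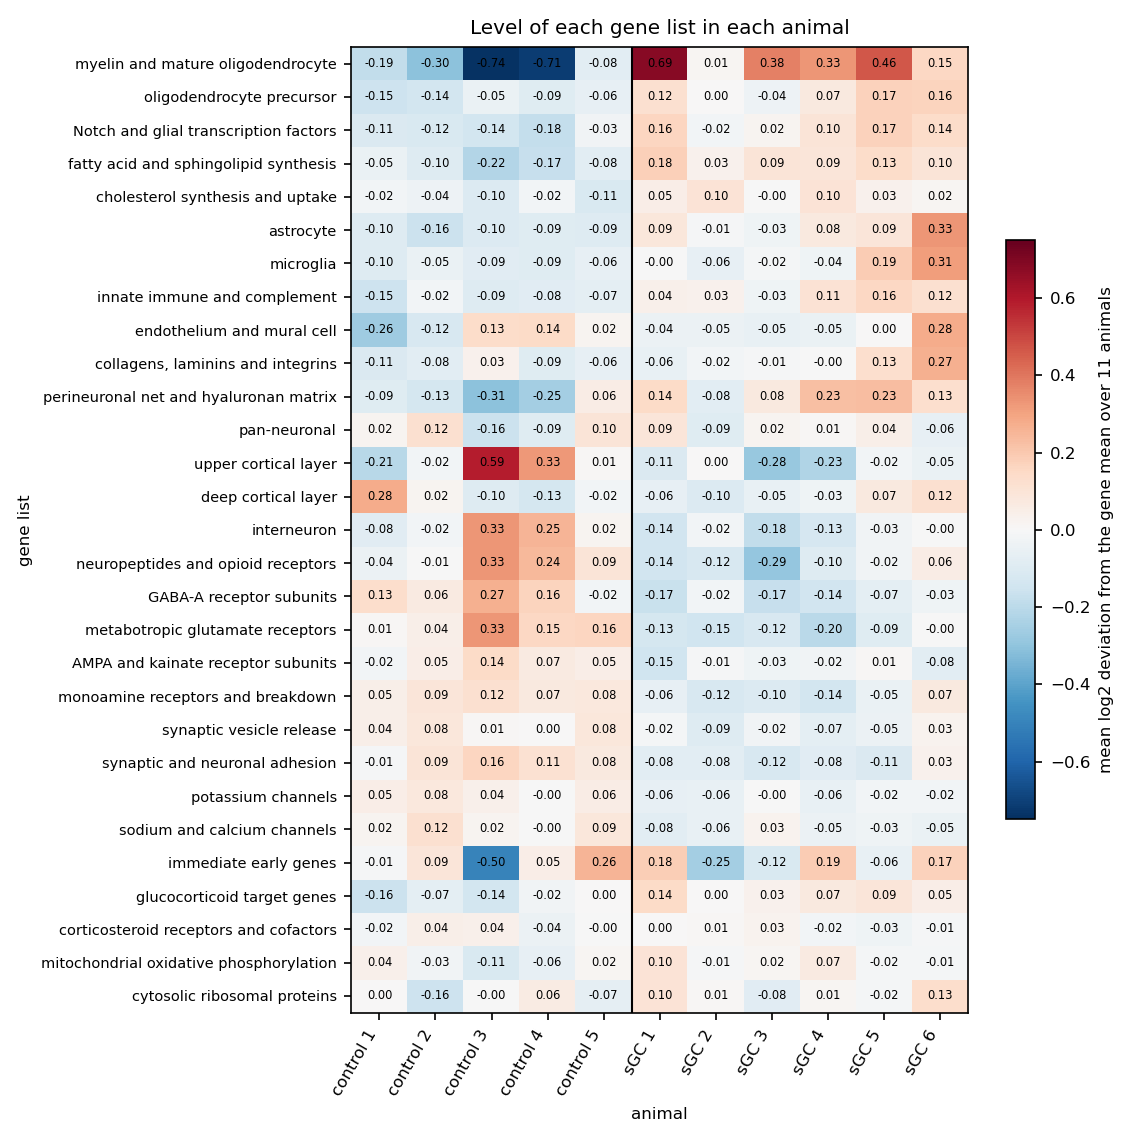
Rows are gene lists and columns the 11 animals, and each cell gives the mean over a list's tested members of the log2 deviation from the gene's mean over the animals (red above, blue below). The myelin row runs from -0.74 in control 3 to 0.69 in sGC animal 1 with the groups apart, whereas the upper cortical layer row is highest in control 3 (0.59) and control 4 (0.33).

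Several presynaptic genes fell. Of 45 genes of synaptic vesicle release, 1 was higher and 8 lower, against 3.48% lower among all tested genes, and the median was -0.11. With other tools, 13 were lower with DESeq2 and 11 with the likelihood ratio test. In 5 members every sGC animal lay below every control, against 2.04% of all tested genes. PPFIA2, liprin-alpha-2 of the active zone, stood at 118, 135, 156, 138 and 142 CPM in controls 1 to 5, and from 94.7 to 110.3 CPM, with a median of 100.2 CPM, in the sGC animals. PPFIA2 was lower in every sGC animal than in any control (log2 fold change -0.44 ± 0.06 SE, quasi-likelihood FDR 0.00303). RIMBP2, which links calcium channels to the release site, stood at 52.9, 59.6, 61.7, 53.9 and 64.2 CPM in controls 1 to 5, and from 41.4 to 49.97 CPM, with a median of 43.9 CPM, in the sGC animals. RIMBP2 was lower in every sGC animal than in any control (log2 fold change -0.39 ± 0.06 SE, quasi-likelihood FDR 0.00445). SYT4, a synaptotagmin of vesicles and dense-core granules, stood at 277, 249, 320.4, 313 and 238 CPM in controls 1 to 5, and from 182 to 228 CPM, with a median of 210.0 CPM, in the sGC animals. SYT4 was lower in every sGC animal than in any control (log2 fold change -0.42 ± 0.09 SE, quasi-likelihood FDR 0.0109). Of the endocytic genes, AMPH was at 343 ± 14.9 CPM in the controls against 306 ± 7.36 CPM in the sGC group (-0.17, FDR 0.015) and SH3GL2, endophilin A1, at 386 ± 30.9 CPM in the controls against 328 ± 14.9 CPM in the sGC group (-0.23, FDR 0.0165). SYN2, a synapsin of vesicle clusters (-0.34, FDR 0.0216), was lost without controls 3 or 4 or sGC animals 3, 4 or 5 (FDR 0.0516 to 0.0596). BIN1, which rose and was named after its values were seen (0.23, FDR 0.0273), was lost without controls 3 or 4 or sGC animals 1, 3 or 4 (FDR 0.0561 to 0.0694). The count of vesicle genes that fell was 5 without control 3 or sGC animals 3, 4 or 5 and 15 without sGC animal 6. The count of vesicle genes that rose was 0 without controls 3 or 4 or sGC animals 1, 3 or 4 and 2 without control 2. Of the list, 3 fell with controls 3 and 4 left out together and 14 with sGC animal 6 left out as well.

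On the postsynaptic side, 4 of 24 scaffold genes were lower and 0 higher, 16.7% in all (median -0.13). The count of scaffold genes that fell was 1 without control 3 or sGC animal 4, 2 without controls 2 or 4 or sGC animals 1, 2 or 5 and 8 without sGC animal 6. CNKSR2, a scaffold of the postsynaptic density, was at 223 ± 14.1 CPM in the controls against 189.7 ± 11.3 CPM in the sGC group (-0.23, FDR 0.0147), and passed in each of the 11 fits with an animal left out. Without controls 3 and 4 together CNKSR2 was at -0.18, FDR 0.115, and 0 scaffold genes fell. With sGC animal 6 left out as well CNKSR2 was at -0.16, FDR 0.106, and 2 scaffold genes fell. AKAP5 (-0.39, FDR 0.0428) and SIPA1L1 (-0.15, FDR 0.0391) fell as well, and were lost without controls 2, 3 or 4 or sGC animals 1, 3 or 4 (FDR 0.0703 to 0.098) and without controls 1, 2, 3 or 4 or sGC animals 1, 2, 4 or 5 (FDR 0.0644 to 0.0985). The pan-neuronal genes, which mark neurons of any kind, had a median of -0.04. Of 18, 1 was higher and 1 lower, 11.1% in all against 9.22% of all genes. These were ELAVL3 (0.14, FDR 0.0485) and ELAVL4 (-0.19, FDR 0.0477), both RNA-binding proteins of neurons. ELAVL3 passed without sGC animal 6 alone, and ELAVL4 was lost without controls 2, 4 or 5 or sGC animals 1, 2, 4, 5 or 6 (FDR 0.0561 to 0.11). The summed level of the pan-neuronal genes was 19048 to 21834 CPM in controls and 19038 to 21724 CPM in sGC animals.

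Ion channel subunits moved by small amounts. Of 22 sodium and calcium channel genes, 7 were lower and 0 higher, 31.8% in all, with a median of -0.14. The count of sodium and calcium channel genes that fell was 3 without control 3 or sGC animal 4 and 4 without control 2 or sGC animals 1 or 5. SCN3B, an auxiliary subunit of sodium channels, stood at 641, 582, 662, 634 and 618 CPM in controls 1 to 5, and from 473 to 566 CPM, with a median of 509.7 CPM, in the sGC animals. SCN3B was lower in every sGC animal than in any control (log2 fold change -0.28 ± 0.05 SE, quasi-likelihood FDR 0.00822). CACNA2D1, the calcium channel subunit that binds gabapentin, was at 391 ± 37.7 CPM in the controls against 320.3 ± 22.02 CPM in the sGC group (-0.29, FDR 0.016), and CACNB2, a cytoplasmic calcium channel subunit, at 125 ± 3.94 CPM in the controls against 109.8 ± 4.63 CPM in the sGC group (-0.18, FDR 0.0119), both with groups that did not overlap. Of 46 potassium channel genes, 3 were higher and 3 lower (median -0.09), and 7 were lower with DESeq2 and 7 with the likelihood ratio test. The count of potassium channel genes that rose was 1 without control 4 or sGC animals 1, 3, 4 or 5. The count of potassium channel genes that fell was 8 without sGC animal 6. KCNN3, a calcium-gated potassium channel, stood at 17.7, 19.8, 20.1, 25.4 and 17.1 CPM in controls 1 to 5 and from 11.6 to 17.1 CPM, with a median of 12.99 CPM, in the sGC animals. The highest sGC animal reached the lowest control (log2 fold change -0.56 ± 0.12 SE, quasi-likelihood FDR 0.013). HCN3, a pacemaker channel, was at 20.8 ± 1.66 CPM in the controls against 17.01 ± 1.146 CPM in the sGC group (-0.29, FDR 0.0157). Without controls 3 and 4, 1 of the sodium and calcium and 1 of the potassium channel genes fell.

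GABA is the main inhibitory transmitter of the cortex. Its ionotropic receptor, GABA-A, is assembled from a family of subunits. All 11 tested GABA-A subunit genes had log2 fold changes below 0 (median -0.23), of which 3, or 27.3%, passed. With DESeq2 7 passed, and 7 with the likelihood ratio test. The count of GABA-A subunit genes that fell was 1 without controls 1 or 3 or sGC animals 1, 3 or 4, 5 without sGC animal 6 and 6 without control 5. GABRA4, an extrasynaptic alpha subunit, stood at 99.3, 93.9, 100.01, 100.6 and 87.5 CPM in controls 1 to 5, and from 73.7 to 86.6 CPM, with a median of 82.4 CPM, in the sGC animals. GABRA4 was lower in every sGC animal than in any control (log2 fold change -0.24 ± 0.05 SE, quasi-likelihood FDR 0.0124). With controls 3 and 4 left out, 0 passed and the median was -0.16.

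Among 13 genes of GABA synthesis, transport and GABA-B receptors, 1 was higher and 2 lower, 23.1% in all (median -0.12). The count of other GABA genes that fell was 1 without controls 3 or 4 or sGC animals 1, 2, 3, 4 or 5 and 5 without sGC animal 6. SLC12A2, the chloride importer NKCC1 found in glia and immature neurons, stood at 54.7, 60.6, 41.6, 47.8 and 62.7 CPM in controls 1 to 5, and from 70.7 to 93.7 CPM, with a median of 80.99 CPM, in the sGC animals. SLC12A2 was higher in every sGC animal than in any control (log2 fold change 0.63 ± 0.10 SE, quasi-likelihood FDR 0.0045). GABBR1, a subunit of the metabotropic GABA-B receptor, stood at 586, 618, 628, 640.1 and 693 CPM in controls 1 to 5, and from 501 to 603 CPM, with a median of 519 CPM, in the sGC animals. The highest sGC animal lay among the controls (log2 fold change -0.25 ± 0.05 SE, quasi-likelihood FDR 0.0137). GAD1, which makes GABA, stood at 204, 196, 239, 227 and 215 CPM in controls 1 to 5 and from 176 to 209.9 CPM, with a median of 181 CPM, in the sGC animals. Sample ranges overlapped (log2 fold change -0.22 ± 0.06 SE, quasi-likelihood FDR 0.0293), and the change was lost without controls 3 or 4 or sGC animals 1, 2, 3, 4 or 5 (FDR 0.06 to 0.0767). SLC12A2 passed also without controls 3 and 4 (0.48, FDR 0.0273).

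Of the glutamate receptors, 0 of 6 NMDA subunit genes were lower in edgeR's quasi-likelihood test (median -0.11). Of these 6, 3 had an unadjusted p under 0.05, 1 passed in DESeq2 and 1 in edgeR's likelihood ratio test. In the quasi-likelihood test, 2 of 13 AMPA and kainate genes, or 15.4%, were lower (median -0.14). So were 2 of 4 metabotropic receptor genes, or 50% (median -0.32), and no glutamate receptor gene was higher. The count of NMDA subunit genes that fell was 1 without sGC animal 6. The AMPA and kainate count was 0 without sGC animal 4, 1 without controls 3 or 4 or sGC animals 1, 2, 3 or 5 and 5 without control 1. The metabotropic count was 0 without controls 3 or 4 or sGC animals 3 or 4 and 1 without control 5 or sGC animals 1, 2 or 5. With controls 3 and 4 left out together, 0 genes of these lists were lower. With sGC animal 6 left out as well, 1 NMDA, 0 AMPA and kainate and 1 metabotropic gene fell. GRIA2, the subunit that keeps AMPA receptors from passing calcium, stood at 372, 379.6, 439, 384 and 366 CPM in controls 1 to 5, and from 291 to 360.2 CPM, with a median of 319.7 CPM, in the sGC animals. GRIA2 was lower in every sGC animal than in any control (log2 fold change -0.27 ± 0.06 SE, quasi-likelihood FDR 0.0193). The change was lost without sGC animal 4 (FDR 0.052). GRIA1, the other AMPA subunit that fell (-0.24, FDR 0.0403), was lost without controls 3 or 4 or sGC animals 1, 2, 3, 4 or 5 (FDR 0.0535 to 0.102). GRM5 (-0.48, FDR 0.0302) and GRM2 (-0.40, FDR 0.036), metabotropic receptors of the postsynaptic and presynaptic side, were lost without controls 3 or 4 or sGC animals 1, 3, 4 or 5 (FDR 0.0613 to 0.0736) and without controls 3, 4 or 5 or sGC animals 2, 3, 4 or 5 (FDR 0.0591 to 0.0875). Without controls 3 and 4 together, GRIA2 was at -0.21, FDR 0.118 and GRIA1 at -0.12, FDR 0.246. In the same setting GRM5 was at -0.32, FDR 0.175 and GRM2 at -0.36, FDR 0.152.

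Among 21 monoamine receptors and enzymes of breakdown, 3 were lower and 1 higher (median -0.16). The count of monoamine genes that fell was 1 without control 4 and 6 without sGC animal 6. The count of monoamine genes that rose was 0 without controls 3, 4 or 5 or sGC animals 2, 3, 4 or 5. HTR1B, the serotonin receptor that restrains release at axon terminals, stood at 19.7, 20.1, 12.1, 17.02 and 21.3 CPM in controls 1 to 5, and from 8.43 to 12.8 CPM, with a median of 11.3 CPM, in the sGC animals. Control 3 lay within the range of the sGC animals, and the other controls lay above all of them (log2 fold change -0.72 ± 0.14 SE, quasi-likelihood FDR 0.00825). HTR1B passed also without controls 3 and 4 (-0.89, FDR 0.0225). The serotonin receptors Htr4 (-0.55, FDR 0.0202) and Htr5a (-0.32, FDR 0.0375) were lost without control 4 (FDR 0.0502) and without controls 2, 3, 4 or 5 or sGC animals 2, 3, 4 or 5 (FDR 0.0618 to 0.0913). Of 14 genes of acetylcholine signalling, 2 were higher and 0 lower, 14.3% in all, and both are known for breakdown of the transmitter. The count of acetylcholine genes that fell was 1 without control 4 or sGC animal 6. BCHE, butyrylcholinesterase, stood at 9.05, 9.31, 7.52, 9.41 and 9.72 CPM in controls 1 to 5, and from 11.3 to 16.9 CPM, with a median of 12.5 CPM, in the sGC animals. BCHE was higher in every sGC animal than in any control (log2 fold change 0.57 ± 0.11 SE, quasi-likelihood FDR 0.00805). PRIMA1, the membrane anchor of acetylcholinesterase, was at 12.1 ± 0.792 CPM in the controls against 16.9 ± 2.700 CPM in the sGC group (0.48, FDR 0.0118). Neither gene passed without controls 3 and 4, with BCHE at 0.51, FDR 0.0549 and PRIMA1 at 0.48, FDR 0.0691. With sGC animal 6 left out as well, BCHE (FDR 0.0226) and PRIMA1 (FDR 0.0307) passed.

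Of 23 neuropeptides and opioid receptors, 2 were lower and 0 higher, 8.7% in all against 9.22% of all genes (median -0.20). With DESeq2 2 were lower, and 4 with the likelihood ratio test. Of 21 interneuron markers, 3 were lower and 0 higher, 14.3% in all (median -0.13). The neuropeptide count was 0 without controls 3 or 4, 1 without sGC animals 1, 2, 3, 4 or 5 and 6 without sGC animal 6. The interneuron count was 0 without controls 3 or 4 or sGC animals 1, 3 or 4, 1 without sGC animals 2 or 5 and 6 without sGC animal 6. With controls 3 and 4 left out together, 0 genes of either list fell. With sGC animal 6 left out as well, 2 neuropeptide and 3 interneuron genes fell. CALB2, the calcium-binding protein calretinin, stood at 30.96, 28.8, 114, 101.4 and 35.8 CPM in controls 1 to 5 and from 14.3 to 31.2 CPM, with a median of 22.6 CPM, in the sGC animals. Controls 3 and 4 lay far above the other controls, whose range met that of the sGC animals (log2 fold change -1.44 ± 0.36 SE, quasi-likelihood FDR 0.0256). The change was lost without controls 3 or 4 or sGC animals 1, 3 or 4 (FDR 0.0551 to 0.0721), and without controls 3 and 4 it was -0.47, FDR 0.184. SST, the somatostatin of a class of interneurons, was at 132, 97.97, 157, 141 and 113 CPM in controls 1 to 5 and from 68.3 to 122 CPM, with a median of 83.1 CPM, in the sGC animals. The groups overlapped (log2 fold change -0.54 ± 0.14 SE, quasi-likelihood FDR 0.0345), and the change was lost without controls 1, 3 or 4 or sGC animals 1, 2, 3, 4 or 5 (FDR 0.0501 to 0.0901). ADCYAP1, the peptide PACAP (-0.68, FDR 0.0199), was lost without controls 3 or 4 (FDR 0.0527 to 0.0578).

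No upper or deep layer marker passed in edgeR's quasi-likelihood test, among 14 upper (median -0.18, 3 with an unadjusted p under 0.05, 1 passing in DESeq2 and 2 in edgeR's likelihood ratio test) and 17 deep layer genes (median 0.02, 2 with an unadjusted p under 0.05, 1 passing in DESeq2 and 1 in edgeR's likelihood ratio test). The count of upper layer genes that fell was 1 without control 1 and 2 without controls 2 or 5 or sGC animal 6. The count of deep layer genes that fell was 3 without sGC animal 6. The mean log2 deviation of the upper layer markers was 0.59 in control 3 and 0.33 in control 4, from -0.21 to 0.01 in the other controls and from -0.28 to 0.0016 in the sGC animals. Without controls 3 and 4 the median of the list was 0.0032, and that of the deep layer list -0.14. Their summed levels were 931 to 1427 CPM in controls and 933 to 1012 CPM in sGC animals for the upper and 1276 to 2043 CPM in controls and 1364 to 1690.4 CPM in sGC animals for the deep layer markers. The part of these layer markers in the changes of neuronal genes was not tested.

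The study lists 10 genes as changed in all groups of its series, a choice made on these animals among others, so that their direction here is not independent evidence. Of these, 4 passed here in the quasi-likelihood test, ARPP21, ATP6AP1L, VSTM2L and KRT80, all lower. In the likelihood ratio test, the kind the study used, CALB1 (FDR 0.0216), GLRA3 (FDR 0.00822), Pdyn (FDR 0.0177) and SOWAHA (FDR 0.0374) passed. GPR52 (FDR 0.0649) and C9orf116 (FDR 0.0649) did not pass in that test. With DESeq2, GLRA3 passed (FDR 0.00774), and CALB1, Pdyn, SOWAHA, GPR52 and C9orf116 did not. The values that follow are from the quasi-likelihood test. ARPP21, a neuronal phosphoprotein regulated by cyclic AMP, stood at 255, 277, 339, 277 and 289 CPM in controls 1 to 5, and from 213 to 242 CPM, with a median of 228 CPM, in the sGC animals. ARPP21 was lower in every sGC animal than in any control (log2 fold change -0.34 ± 0.06 SE, quasi-likelihood FDR 0.00665). ATP6AP1L was at 140.0 ± 9.68 CPM in the controls against 118 ± 6.88 CPM in the sGC group (-0.24, FDR 0.0138). VSTM2L (-0.70, FDR 0.0253) was lost without controls 3 or 4 or sGC animals 1, 3 or 4 (FDR 0.0517 to 0.0685), and KRT80 (-1.49, FDR 0.0393) without controls 3 or 4 or sGC animals 1, 2, 3, 4 or 5 (FDR 0.0752 to 0.109). Pdyn, the precursor of dynorphin, stood at 12.1, 7.52, 72.5, 45.5 and 10.6 CPM in controls 1 to 5 and from 5.69 to 14.2 CPM, with a median of 9.704 CPM, in the sGC animals without passing the threshold (log2 fold change -1.63 ± 0.53 SE, quasi-likelihood FDR 0.0695). CALB1, calbindin, was at 21.7, 16.4, 57.6, 40.9 and 18.4 CPM in controls 1 to 5 and from 9.13 to 21.5 CPM, with a median of 16.7 CPM, in the sGC animals and did not pass (log2 fold change -0.98 ± 0.32 SE, quasi-likelihood FDR 0.069). In both genes controls 3 and 4 stood far above the rest. GLRA3 (-1.88, FDR 0.051), GPR52 (-1.16, FDR 0.119), SOWAHA (-0.59, FDR 0.0856) and C9orf116 (-0.57, FDR 0.102) did not pass. Pdyn passed in 2, CALB1 in 3, GLRA3 in 4 and C9orf116 in 1 of the 11 fits that left out 1 animal, namely without controls 2 or 5 (FDR 0.0342 to 0.0428), without controls 2 or 5 or sGC animal 6 (FDR 0.0396 to 0.0491), without controls 1, 2 or 5 or sGC animal 6 (FDR 0.0289 to 0.044) and without control 2 (FDR 0.0336). Without controls 3 and 4, the log2 fold changes were -0.07, FDR 0.924 for Pdyn, -0.26, FDR 0.565 for CALB1, -0.42, FDR 0.593 for GLRA3, -0.18, FDR 0.843 for GPR52, -0.15, FDR 0.59 for SOWAHA, -0.26, FDR 0.532 for C9orf116, -0.78, FDR 0.3 for KRT80 and -0.33, FDR 0.134 for VSTM2L. Under the same setting they were -0.27, FDR 0.0308 for ARPP21 and -0.23, FDR 0.0741 for ATP6AP1L, so that ARPP21 was the one of the 10 that passed without these controls. Leaving out control 3 alone moved Pdyn to -0.99, CALB1 to -0.63, GPR52 to -0.75 and SOWAHA to -0.37 on the log2 scale.

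Of markers from neighbouring regions, 1 of 14 striatal genes (7.14%) was higher and 0 lower in the quasi-likelihood test, against 9.22% of all genes. The one higher was GNG7, a G protein subunit at 217 ± 33.5 CPM in the controls against 312 ± 34.9 CPM in the sGC group (0.52, FDR 0.00834). GNG7 is part of the summed level of the striatal markers. The count of striatal genes that fell was 1 without controls 2 or 5 or sGC animal 6. The part of striatal markers in the results was not tested. Of 10 hypothalamic markers, 2, or 20%, were lower, SST and HDC. The count of hypothalamic genes that fell was 1 without controls 1, 3 or 4 or sGC animals 1, 2, 3, 4 or 5. HDC, which makes histamine, stood at 10.3, 9.31, 9.33, 9.72 and 9.54 CPM in controls 1 to 5, and from 5.36 to 7.99 CPM, with a median of 6.21 CPM, in the sGC animals. HDC was lower in every sGC animal than in any control (log2 fold change -0.60 ± 0.10 SE, quasi-likelihood FDR 0.00423). HDC passed also without controls 3 and 4 (-0.61, FDR 0.0317). The summed level of the hypothalamic list was 146 to 207 CPM in controls and 107 to 169.9 CPM in sGC animals. SST, which is also in the interneuron list, made up most of this sum. The mean log2 deviation of the hypothalamic list overlapped, from -0.05 to 0.24 in controls and from -0.26 to 0.10 in sGC animals. Of 8 markers of choroid plexus and ependyma, 1, or 12.5%, was higher and 0 lower in the quasi-likelihood test. The one higher was DNAH11, a motor protein of cilia (0.50, FDR 0.00303). The count of choroid plexus genes that rose was 2 without sGC animal 6. The count of choroid plexus genes that fell was 1 without controls 1 or 2 or sGC animal 6. Neither of the 2 blood markers passed in the quasi-likelihood test (0 with an unadjusted p under 0.05, 0 passing in DESeq2 and 0 in edgeR's likelihood ratio test).

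The receptors that carry the glucocorticoid signal passed no threshold. NR3C1 stood at 64.9, 70.7, 75.4, 73.7 and 72.97 CPM in controls 1 to 5 and from 65.8 to 73.4 CPM, with a median of 69.2 CPM, in the sGC animals. The range of the sGC animals lay within that of the controls (log2 fold change -0.04 ± 0.05 SE, quasi-likelihood FDR 0.647). NR3C2, the mineralocorticoid receptor, had log2 fold change -0.02 ± 0.05 SE, quasi-likelihood FDR 0.866, and FKBP5, the chaperone that dampens the receptor, log2 fold change 0.16 ± 0.12 SE, quasi-likelihood FDR 0.441. Of 20 receptors and cofactors, 0 were higher and 0 lower in the quasi-likelihood test, with a median of -0.02 and 4 with an unadjusted p under 0.05, 1 passing in DESeq2 and 0 in edgeR's likelihood ratio test. The count of receptor and cofactor genes that fell was 1 without control 1 or sGC animal 6.

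Of 27 known targets of the receptor, 3 were higher and 0 lower, 11.1% in all against 9.22% of all genes (median 0.09). With DESeq2 6 were higher, and 6 with the likelihood ratio test. The count of target genes that fell was 1 without controls 1, 2 or 5 or sGC animal 6. PDK4, a kinase that turns pyruvate away from oxidation, stood at 14.5, 14.2, 13.3, 16.3 and 14.6 CPM in controls 1 to 5, and from 20.1 to 30.5 CPM, with a median of 26.5 CPM, in the sGC animals. PDK4 was higher in every sGC animal than in any control (log2 fold change 0.82 ± 0.10 SE, quasi-likelihood FDR 0.00285). PDK4 kept this size without controls 3 and 4 (0.84, FDR 0.0231). TXNIP, which binds thioredoxin and restrains glucose uptake, stood at 46.8, 53.5, 39.04, 33.7 and 54.7 CPM in controls 1 to 5, and from 56.5 to 102 CPM, with a median of 72.4 CPM, in the sGC animals. TXNIP was higher in every sGC animal than in any control (log2 fold change 0.73 ± 0.15 SE, quasi-likelihood FDR 0.0118). CDKN1A, the cell cycle inhibitor p21, was at 18.4 ± 1.46 CPM in the controls against 25.9 ± 3.98 CPM in the sGC group (0.49, FDR 0.0118). Of 20 immediate early genes, 0 were higher and 0 lower in the quasi-likelihood test (median 0.01, 3 with an unadjusted p under 0.05, 0 passing in DESeq2 and 0 in edgeR's likelihood ratio test). The count of immediate early genes that fell was 1 without control 3 or sGC animal 6. Among 20 clock genes 2 were lower, 10% in all against 9.22% of all genes. These were CLOCK (-0.26, FDR 0.0423) and NR1D2 (-0.16, FDR 0.0193). The clock gene count was 0 without sGC animal 4 and 1 without controls 1, 2, 3, 4 or 5 or sGC animals 1, 2, 3 or 5. It was 0 with controls 3 and 4 left out together and 1 with sGC animal 6 left out as well.

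Of 34 heat shock proteins and chaperones, 3 were higher and 1 lower, 11.8% in all against 9.22% of all genes (median 0.01). Cryab, alpha-B crystallin, a small heat shock protein abundant in oligodendrocytes and astrocytes, stood at 115, 94.6, 72.4, 77.3 and 119 CPM in controls 1 to 5, and from 131 to 206 CPM, with a median of 171 CPM, in the sGC animals. Cryab was higher in every sGC animal than in any control (log2 fold change 0.85 ± 0.14 SE, quasi-likelihood FDR 0.00482). HSPB8, its relative, was at 18.8 ± 3.07 CPM in the controls against 26.2 ± 3.005 CPM in the sGC group (0.48, FDR 0.0151), and DNAJB2, a co-chaperone of neurons, at 126 ± 1.57 CPM in the controls against 146 ± 9.48 CPM in the sGC group (0.22, FDR 0.0111). DNAJC5, a chaperone of synaptic vesicles, was the 1 that fell (-0.13, FDR 0.048), and it passed in 1 of the 11 fits with an animal left out, that without sGC animal 6.

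The zinc finger gene ZFP57, whose protein holds DNA methylation at imprinted control regions, rose more than any other gene in which the groups did not overlap. ZFP57 stood at 33.5, 26.3, 21.8, 17.7 and 31.7 CPM in controls 1 to 5, and from 46.1 to 75.9 CPM, with a median of 62.6 CPM, in the sGC animals. Its level was lowest in control 4 and highest in sGC animal 5 (log2 fold change 1.24 ± 0.17 SE, quasi-likelihood FDR 0.00303), and without controls 3 and 4 the change was 1.02, FDR 0.0231. Of 24 genes in the list of ZFP57 and imprinted genes, 2 were higher and 2 lower, 16.7% in all (median -0.09). The count of imprinted genes that fell was 1 without controls 2, 4 or 5 or sGC animals 1, 2, 4 or 5. SGCE, a paternally expressed sarcoglycan, was at 43.7 ± 2.92 CPM in the controls against 52.99 ± 2.64 CPM in the sGC group (0.28, FDR 0.0072). PEG3, a paternally expressed zinc finger gene, stood at 43.7, 43.7, 52.9, 51.03 and 41.2 CPM in controls 1 to 5, and from 29.04 to 42.1 CPM, with a median of 34.1 CPM, in the sGC animals. One sGC animal reached into the range of the controls (log2 fold change -0.43 ± 0.09 SE, quasi-likelihood FDR 0.0124). PEG10 (-0.21, FDR 0.0406), which neighbours SGCE in an imprinted cluster, was lost without controls 1, 2, 4 or 5 or sGC animals 1, 2, 4 or 5 (FDR 0.0548 to 0.0964).

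Of 53 genes of DNA methylation and histone modification, 4 were higher and 1 lower, 9.43% in all against 9.22% of all genes (median 0.02). SETDB1, a histone H3 lysine 9 methyltransferase that is recruited by zinc finger proteins, stood at 151, 133, 118, 120.1 and 149.9 CPM in controls 1 to 5, and from 173 to 237 CPM, with a median of 192 CPM, in the sGC animals. SETDB1 was higher in every sGC animal than in any control (log2 fold change 0.54 ± 0.09 SE, quasi-likelihood FDR 0.00408). SIRT2, a deacetylase abundant in myelin, stood at 174, 176, 144, 138 and 191 CPM in controls 1 to 5, and from 209 to 275 CPM, with a median of 242 CPM, in the sGC animals. SIRT2 was higher in every sGC animal than in any control (log2 fold change 0.53 ± 0.09 SE, quasi-likelihood FDR 0.00563). HDAC1 was at 24.95 ± 1.77 CPM in the controls against 30.2 ± 1.27 CPM in the sGC group (0.28, FDR 0.00824). The change of HDAC11 (0.17, FDR 0.0473) was lost without controls 1, 2, 3 or 4 or sGC animals 1, 3, 4 or 5 (FDR 0.0697 to 0.103), and the fall of HDAC9 (-0.52, FDR 0.0384) without controls 3 or 4 or sGC animals 1, 3, 4 or 5 (FDR 0.0756 to 0.0997). The count of chromatin genes that fell was 0 without controls 3 or 4 or sGC animals 1, 3, 4 or 5 and 2 without sGC animal 6.

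**Figure D4:**
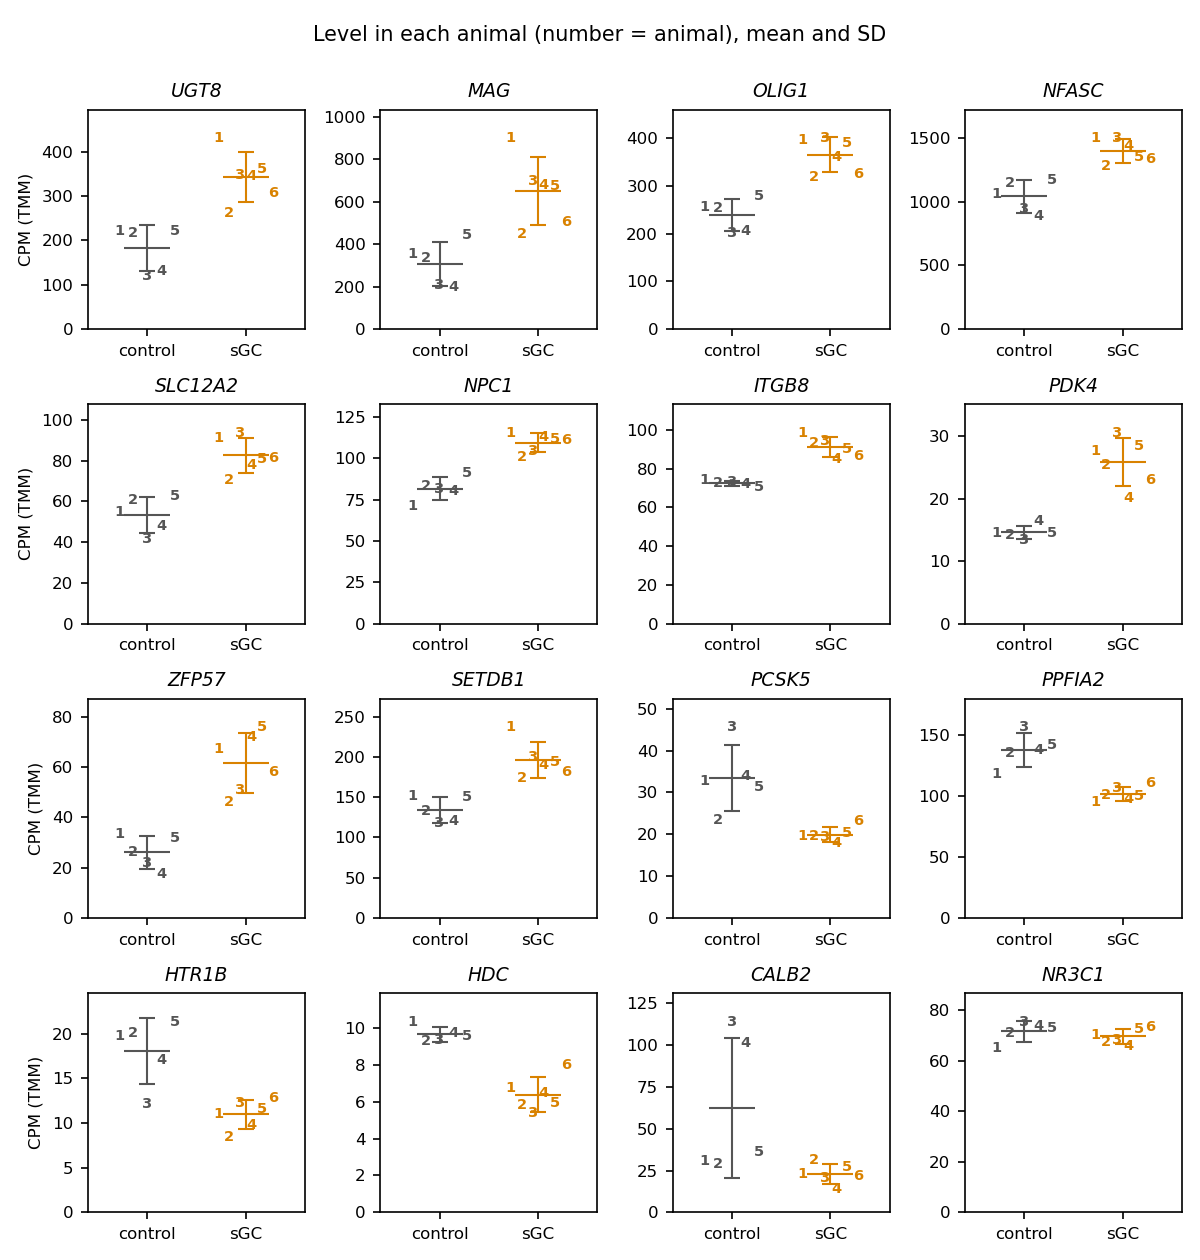
Each panel gives 1 gene, with the TMM-normalised CPM of each animal on a y axis from 0, plotted as the animal's number, and the mean with its SD per group (5 control, 6 sGC). The groups are apart in genes such as UGT8, PDK4 and HDC, controls 3 and 4 stand alone in CALB2, and NR3C1 overlaps.

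Of 44 Wnt genes, 3, or 6.82%, were higher and 0 lower (median 0.01), against 5.74% and 3.48% of all tested genes. The count of Wnt genes that fell was 1 without sGC animal 6. NKD1, an inhibitor that Wnt signalling itself induces, stood at 73.5, 74.5, 65.8, 60.9 and 76.1 CPM in controls 1 to 5, and from 98.4 to 118 CPM, with a median of 107 CPM, in the sGC animals. NKD1 was higher in every sGC animal than in any control (log2 fold change 0.62 ± 0.07 SE, quasi-likelihood FDR 0.00259). The ligands WNT5B (0.56, FDR 0.012) and WNT7A (0.41, FDR 0.0134) were the others. Of 55 axon guidance genes, 5 were higher and 4 lower, 16.4% in all against 9.22% of all tested genes (median -0.06), and 8 were lower with DESeq2 and 9 with the likelihood ratio test. The count of guidance genes that fell was 1 without sGC animals 3 or 4, 2 without controls 3 or 4 or sGC animals 1 or 5 and 7 without sGC animal 6. Of the guidance genes, 2 were higher and 0 lower with controls 3 and 4 left out together. With sGC animal 6 left out as well, 5 were higher and 3 lower. SEMA6A, a semaphorin also found in oligodendrocytes, stood at 55.2, 59.95, 57.2, 52.3 and 63.3 CPM in controls 1 to 5, and from 71.9 to 96.2 CPM, with a median of 79.1 CPM, in the sGC animals. SEMA6A was higher in every sGC animal than in any control (log2 fold change 0.48 ± 0.07 SE, quasi-likelihood FDR 0.00336). SEMA6D (0.32, FDR 0.00445), SEMA4C (0.42, FDR 0.0147), the netrin receptor UNC5B (0.60, FDR 0.0126) and PLXNB3, a semaphorin receptor of oligodendrocytes (0.67, FDR 0.0135), rose too. EFNB3, an ephrin of neurons, fell (-0.58, FDR 0.0181) and was lost without control 4 (FDR 0.052). Of 30 neurotrophic genes, 3 were higher and 1 lower, 13.3% in all (median -0.03), and 5 were higher with DESeq2 and 5 with the likelihood ratio test. FGFR2, the fibroblast growth factor receptor of oligodendrocytes, stood at 54.3, 53.3, 52.99, 55.95 and 57.4 CPM in controls 1 to 5, and from 66.6 to 82.6 CPM, with a median of 70.9 CPM, in the sGC animals. FGFR2 was higher in every sGC animal than in any control (log2 fold change 0.41 ± 0.06 SE, quasi-likelihood FDR 0.00303). ERBB3, the neuregulin receptor of the same lineage, was at 33.4 ± 5.01 CPM in the controls against 53.3 ± 8.86 CPM in the sGC group (0.68, FDR 0.0058). VEGFB (0.21, FDR 0.0357) was lost without controls 1, 2, 3 or 4 or sGC animals 1 or 4 (FDR 0.0588 to 0.0766), and NTRK3 (-0.31, FDR 0.0484), the member that fell, without controls 1, 3 or 4 or sGC animals 1, 2, 3, 4 or 5 (FDR 0.0573 to 0.113).

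The genes of energy supply and protein synthesis gave almost no calls. None of 53 oxidative phosphorylation genes (median 0.05, 7 with an unadjusted p under 0.05, 1 passing in DESeq2 and 0 in edgeR's likelihood ratio test) and none of 46 cytosolic ribosomal protein genes (median 0.06, 6 with an unadjusted p under 0.05, 1 passing in DESeq2 and 0 in edgeR's likelihood ratio test) passed in edgeR's quasi-likelihood test. The count of oxidative phosphorylation genes that rose was 1 without control 2. Their log2 fold changes lay between -0.04 and 0.17 and between -0.05 and 0.18. Of 15 subunits and partners of the vacuolar ATPase, 2, or 13.3%, were lower, ATP6AP1L and ATP6V1A (-0.22, FDR 0.0194). The latter was lost without control 1 or sGC animal 4 (FDR 0.0505 to 0.0534).

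Outside the lists, the smallest FDR values of the table belonged to GATM, ADIPOR2 and KIF1C. GATM, the first enzyme of creatine synthesis, stood at 160.0, 154, 151, 159 and 163 CPM in controls 1 to 5, and from 190.4 to 209.8 CPM, with a median of 199.7 CPM, in the sGC animals. GATM was higher in every sGC animal than in any control (log2 fold change 0.34 ± 0.04 SE, quasi-likelihood FDR 0.00259). ADIPOR2, a receptor for adiponectin, stood at 81.5, 86.8, 83.5, 85.4 and 91.3 CPM in controls 1 to 5, and from 104 to 120.1 CPM, with a median of 114 CPM, in the sGC animals. ADIPOR2 was higher in every sGC animal than in any control (log2 fold change 0.40 ± 0.04 SE, quasi-likelihood FDR 0.00259). KIF1C, a kinesin motor, was at 77.5 ± 4.11 CPM in the controls against 103 ± 6.06 CPM in the sGC group (0.42, FDR 0.00285). The genes that rose most while the groups stayed apart also included PRRG4, LMOD1 and PLA2R1. PRRG4, a transmembrane protein with a Gla domain, stood at 1.599, 1.69, 1.55, 2.24 and 1.57 CPM in controls 1 to 5, and from 2.697 to 4.496 CPM, with a median of 3.78 CPM, in the sGC animals. PRRG4 was higher in every sGC animal than in any control (log2 fold change 1.07 ± 0.15 SE, quasi-likelihood FDR 0.00303). Its counts were 41 to 124 reads per library. LMOD1, an actin-nucleating protein, was at 9.51 ± 2.45 CPM in the controls against 19.7 ± 4.71 CPM in the sGC group (1.05, FDR 0.0058), PLA2R1, a receptor for secreted phospholipase, at 12.7 ± 3.24 CPM in the controls against 25.7 ± 5.82 CPM in the sGC group (1.02, FDR 0.00585), and DAPK2, a kinase (1.07, FDR 0.0447), was lost without controls 2, 3, 4 or 5 or sGC animals 1, 3, 4 or 5 (FDR 0.0504 to 0.0963).

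Among the genes that fell most while the groups stayed apart, PCSK5, a protease that matures secreted proteins, stood at 32.8, 23.5, 45.6, 33.8 and 31.3 CPM in controls 1 to 5, and from 17.8 to 23.1 CPM, with a median of 19.6 CPM, in the sGC animals. The gap between the lowest control and the highest sGC animal was small (log2 fold change -0.74 ± 0.13 SE, quasi-likelihood FDR 0.00534). PLCXD2, a phospholipase-like protein, stood at 96.98, 105, 136, 111 and 111 CPM in controls 1 to 5, and from 58.2 to 90.7 CPM, with a median of 69.00 CPM, in the sGC animals. PLCXD2 was lower in every sGC animal than in any control (log2 fold change -0.66 ± 0.11 SE, quasi-likelihood FDR 0.00478). PRDM16, a transcriptional regulator of neural development, stood at 15.2, 14.97, 12.3, 16.2 and 11.4 CPM in controls 1 to 5, and from 7.24 to 10.9 CPM, with a median of 9.34 CPM, in the sGC animals. PRDM16 was lower in every sGC animal than in any control (log2 fold change -0.60 ± 0.12 SE, quasi-likelihood FDR 0.00902). RIT2, a GTPase of neurons, was at 9.22 ± 1.62 CPM in the controls against 5.902 ± 1.000 CPM in the sGC group (-0.64, FDR 0.0125), and LAMB3, a laminin chain, at 5.73 ± 0.963 CPM in the controls against 3.84 ± 0.502 CPM in the sGC group (-0.58, FDR 0.0147). PZP, a protease inhibitor (-0.65, FDR 0.0215), was lost without controls 3 or 4 or sGC animal 4 (FDR 0.052 to 0.0612). Without controls 3 and 4, the log2 fold changes were -0.55, FDR 0.0288 for PCSK5, -0.56, FDR 0.0363 for PLCXD2 and -0.58, FDR 0.0477 for PRDM16.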

How the data were processed

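RNA from mPFC punches of 11 F1 males (5 control, 6 sGC) was sequenced, and the authors deposited whole-number read counts per gene, 1 column per animal. The submitters' processing notes name TopHat2 and edgeR, while the genome build, annotation, strand setting and counting tool are not given in the sources used here. Columns of the authors' own comparison in the same table (log2 fold changes and p-values) were not used, and 0 columns of per-sample values in it were left out. The other tables of the series were not used here.

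Of 11720 genes, those passing filterByExpr (minimum count 10, minimum total 15) were kept, 11524 in all. Counts were scaled by TMM and tested with edgeR 4.0.16 (glmQLFit and glmQLFTest, R 4.3.3, limma 3.58.1), sGC against control, two-sided, with Benjamini-Hochberg adjustment over all tested genes. A gene was called at an FDR under 0.05. Log2 fold changes are sGC over control, and each SE is the fold change divided by the square root of the test's F value. CPM values are given as mean ± SD with n = 5 controls and 6 sGC animals unless given per animal, and where a gene is followed by 2 values in brackets these are its log2 fold change and its quasi-likelihood FDR. Principal components used log2(CPM + 0.5). Library totals were 25697953 to 31763585 reads and did not differ detectably between groups (exact permutation test, p = 0.359). With simulated counts for the same design, 96.5% of 200 genes changed by 1 on the log2 scale and 39.5% of 200 changed by 0.3 were recovered. Unchanged genes made up 16 of the 209 calls at 1 and 6 of the 85 calls at 0.3. With 0 genes changed, 0 were called. The 200 genes changed are fewer than the 1062 called in the data, so these shares need not hold there.

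The members and the 46 gene lists were chosen with earlier results of these data known. Genes named were the 8 with the largest rise and the 8 with the largest fall among called genes without overlap between groups and with a mean of at least 1 CPM, up to 6 called members of each list with the smallest FDR (or, where fewer than 2 passed, the 2 with the smallest p), the 10 genes of the study, NR3C1, NR3C2 and FKBP5, the 6 genes with the smallest FDR and defining cell markers. Any other is said to be named after its values were seen. Alternatives were DESeq2 1.42.0, edgeR's likelihood ratio test, RLE and upper-quartile scaling, no filter, a filter of CPM above 1 in 5 libraries, robust dispersion, a replicate block, an unadjusted p under 0.001 and leaving out each animal. No sGC animal had its best match in the control of the same number, although this cannot exclude a shared litter or batch. The correlations of same-numbered deviations were 0.12, -0.02, -0.15, -0.16 and 0.05. Gene names are those of the table. Results for some members of the lists are not reported here, although the counts and medians of the lists include them.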

Additional observations from a re-analysis of the deposited data

Results flagged for a closer look

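Within each group, the highest or lowest animal was set against the others by Dixon's ratio at its 95% level, for the genes named and for library totals. Of 354 groups of values, 18 held such an animal, where chance flags about 1 in 20 groups. Within its group, sGC animal 1 stood apart in Htr5a at 7.31 CPM (others 6.01 to 6.32). Within its group, sGC animal 5 stood apart in Tgfb1 at 3.59 CPM (others 2.29 to 2.705). Within its group, sGC animal 6 stood apart in C1QL3 at 204 CPM (others 95.4 to 125), CLDN5 at 114 CPM (others 69.01 to 81.7), GAD1 at 209.9 CPM (others 176 to 183), Htr4 at 3.98 CPM (others 2.47 to 2.99), KRT80 at 8.61 CPM (others 2.18 to 4.02), PDGFRA at 67.4 CPM (others 45.3 to 53.3), PDGFRL at 100.1 CPM (others 82.8 to 88.7), SEMA6D at 187 CPM (others 206 to 216), SPARCL1 at 3375 CPM (others 2703 to 2949) and SYN2 at 857 CPM (others 611 to 662). Within its group, control 1 stood apart in NR3C2 at 33.3 CPM (others 35.9 to 36.9). Within its group, control 3 stood apart in GRIA2 at 439 CPM (others 366 to 384) and NRXN3 at 76.8 CPM (others 58.7 to 61.6). Within its group, control 4 stood apart in PRRG4 at 2.24 CPM (others 1.55 to 1.69). Within its group, control 5 stood apart in COL18A1 at 58.6 CPM (others 40.2 to 42.6). Control 1 had the smallest library of its group, 25697953 reads, against 28295757 to 29071514 in the others.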

How the results depend on the processing

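Counts of genes moved more than the directions did. The number lower in sGC animals was 726 with DESeq2 and 603 with the likelihood ratio test, and 1038 to 1077 genes differed under the other scalings, filters and no filter. With an unadjusted p under 0.001 as well, 587 differed, 438 higher and 149 lower. When 1 animal was left out, 667 to 1613 differed, 488 to 834 were higher and 158 to 779 lower, with the fewest differing without sGC animal 4 and the most without sGC animal 6. Of the genes higher or lower, the share higher was 62.2%, and 54.3% with DESeq2, 74.6% at the stricter p, 76.3% without sGC animal 4 and 51.7% without sGC animal 6. Settings chosen after seeing the data gave 264 differing, 214 higher and 50 lower without controls 3 and 4, and 795 differing without these and sGC animal 6. No sGC animal correlated best with the control of its own number, which cannot exclude a shared litter or batch. The fit with a replicate block called 999 genes, 749 of them shared with the main fit. The block of number 6 held sGC animal 6 alone, so that this animal did not inform the group difference in that fit. DESeq2 left 225 adjusted p-values undefined. The cause of these shifts was not tested. Depth limits genes at a few CPM, and with these group sizes changes of 0.3 on the log2 scale are often missed.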

Other observations

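Some genes outside the lists, chosen after their values were seen, are also known from oligodendrocytes or, for PMP22, from peripheral myelin. APOD, a lipid-binding apolipoprotein, stood at 167, 142, 109, 126 and 212 CPM in controls 1 to 5, and from 192 to 356 CPM, with a median of 267 CPM, in the sGC animals. The ranges of the groups overlapped (log2 fold change 0.82 ± 0.18 SE, quasi-likelihood FDR 0.0124). GPR37, an orphan receptor of myelinating cells, stood at 119.6, 99.2, 70.1, 85.03 and 130.4 CPM in controls 1 to 5, and from 135 to 228 CPM, with a median of 184 CPM, in the sGC animals. Every sGC animal lay above every control (log2 fold change 0.84 ± 0.16 SE, quasi-likelihood FDR 0.00692). ENPP6, a choline phosphodiesterase of newly formed oligodendrocytes, was at 4.71 ± 1.28 CPM in the controls against 8.91 ± 2.22 CPM in the sGC group (0.92, FDR 0.0137), and PMP22, a membrane protein of peripheral myelin, at 34.5 ± 8.48 CPM in the controls against 60.8 ± 15.4 CPM in the sGC group (0.82, FDR 0.0149). These passed the quasi-likelihood test in each of the 11 fits that left out 1 animal.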
